A study of Sus scrofa with 12 samples.

Results

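Lines 1 and 3 are separate cultures of pig induced pluripotent stem cells that carry a tdTomato reporter at NANOG, and the comparison here is line 3 against line 1. The parental PC-iPS cells were reprogrammed from pig pericytes and kept in LCDMV medium, and the knock-in reporter PC-iPS were made from them with CRISPR-Cas9. The members are 6 of the 12 RNA-seq libraries of the series. Line 1 is represented by Nanog1 (untreated), Act1 (Activin A) and SB1 (SB431542, an inhibitor of the Activin and TGF-β type I receptors), and line 3 by Nanog3, Act3 and SB3. Line 2 was not used. The study grew its Activin A and SB431542 cultures in T1, which is LCDMV without LIF. The treated libraries may therefore also differ from the untreated ones in medium. Some limits belong to these groups. Each line is 1 culture, grown from a mixed population of transfected cells and sorted for tdTomato, not 1 clone, so its cells may differ in which of the NANOG alleles carry the insert, which also holds a puromycin resistance gene. The labels number the Activin A and SB431542 libraries 1 to 3 but do not name the line behind each number, and the 6 libraries were joined by that number. Each line has 1 library per treatment, so the tests measure how steady a difference was across 3 treatments of the same cultures, not across separately made lines, and line 3 cannot be told apart from anything else shared by the libraries numbered 3.

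Pluripotent stem cells of one origin often differ from line to line in genes of early lineages, and neural ectoderm is the fate they take up most readily when Activin or Nodal signalling is low. Activin A acts through type I and type II receptors and SMAD2 and SMAD3, and in many pluripotent cells this pathway supports NANOG. The transcription factors PAX6, SOX1, OLIG2, NEUROG1, SOX9 and POU3F1 are known markers of neural and neural crest progenitors, whereas KRT8, KRT18 and CDH1 mark simple epithelia.

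The 6 libraries were alike in their general properties. Their FPKM (transcript fragments scaled by transcript length and library size) summed to 364241 to 378904, 15648 to 15827 genes were above 0, and mitochondrial transcripts took 9.43% to 11.5% of the FPKM. Total read number is unknown from FPKM. Low values put the depth of Nanog3 at 0.859 of that of Nanog1, and the depths of Act3, SB1 and SB3 at 1.07, 1.10 and 1.10 of that of Act1. The pluripotency markers SOX2, LIN28A and SALL4 were present in all 6, at 59.6 to 71.5, 67.5 to 327 and 10.1 to 18.3 FPKM. Of 31 matched genes of the wider pluripotency list, only 19 reached 0.1 FPKM in 3 of the 6 libraries. SOX17, CDX2, KRT7, POSTN and FAP, which mark endoderm, trophectoderm or fibroblasts, were listed at 0 in all 6 libraries, and FOXA2, TBXT and EOMES did not exceed 0.148 FPKM. Other members of the trophectoderm list were expressed. That list summed to 139, 174 and 247 FPKM in line 1 (untreated, Activin A and SB431542) and to 89.3, 94.7 and 134 in line 3. Much of these sums is 1 keratin, KRT8, at 96.7, 100.04 and 200.1 FPKM in line 1 and 44.3, 35.3 and 90.4 in line 3. Over the 9 tested genes of the list, the median line 3 minus line 1 difference in log2(FPKM + 1) was 0.03, -0.29 and -0.04.

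The test took in 14013 genes that reached 0.1 FPKM in 3 of the 6 libraries. Among them, 71 (0.507%) were higher and 28 (0.2%) were lower in line 3. For a call, limma with treatment as a block had to put the lines 1 or more apart in log2(FPKM + 1), in either direction, at a p of 0.05 or less after Benjamini-Hochberg adjustment. Every one of the 99 called genes differed in the same direction under all 3 treatments, an outcome that the rule for a call itself favours. Among all genes tested, 3552 (25.3%) were higher and 3670 (26.2%) lower in line 3 under all 3 treatments by any amount. In 43 genes (0.307%) line 3 was at least 1 higher in each treatment and in 15 (0.107%) at least 1 lower, and all 58 were also called. The lines did not overlap even across treatments in 39 of the 43 and in 14 of the 15, where choosing genes 1 or more apart in each treatment favours this outcome. Over all genes tested 13.8% did not overlap with line 3 higher and 14.7% with line 3 lower. The calls leaned on the untreated pair. Without it 3 genes were called higher and 4 lower (2238 at an unadjusted p of at most 0.05), without the Activin A pair 73 and 34, and without the SB431542 pair 103 and 28. The size of the differences moved less than the calls. Without the untreated pair FAM181B, for example, was at 1.91 (2.00 with it), PLGRKT at 1.74 (1.69) and COL3A1 at 2.21 (2.73). With no filter on low values, limma called 0 in either direction among 24358 genes, with 3781 at an unadjusted p of at most 0.05, and without the treatment block it called 35 higher and 19 lower. Of 38 genes named by the rule given with the methods, 36 were called, 0 with no filter, 22 without the block, and 5 (ISYNA1, KLHDC8B, GPC6, GPX1 and RPS24) still were without the untreated pair. Without the Activin A pair COL3A1 (adjusted p = 0.0548), PRSS23 (0.0559) and POU3F1 (0.0649) lost their calls. The lone value in a single treatment cannot be tested, and for 1 gene on its own an exact two-sided test over 3 pairs cannot go below p = 0.25.

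The difference between the lines was correlated from one treatment to the next. Across 11282 genes at 1 FPKM or more on average, the line 3 minus line 1 difference in untreated cells correlated with that under Activin A at Pearson r = 0.619 (Spearman 0.580) and with that under SB431542 at 0.503 (0.525). Activin A and SB431542 differences correlated at 0.423 (0.424). The untreated pair was quantified in another table than the other 2 pairs, so the first 2 of these correlations are between tables. These values describe the gene set as a whole, since genes do not replicate one another and all genes of a library share its depth. The parental libraries numbered 3 and 1, measured in the same table as the untreated pair, give a background: their difference correlated with the 3 line differences at 0.072, 0.026 and -0.005. These parental libraries were shallower, at 0.633 and 0.616 of the depth of Nanog1. Their mitochondrial shares of the FPKM, 16.4% and 15.8%, were above those of the 6 libraries. Parental library 3 was at least 1 higher than parental library 1 in 209 genes (1.49%) and at least 1 lower in 202 (1.44%), against 151 (1.08%) and 74 (0.528%) for the untreated pair of lines, 170 (1.21%) and 86 (0.614%) for the Activin A pair and 124 (0.885%) and 73 (0.521%) for the SB431542 pair.

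**Figure D1:**
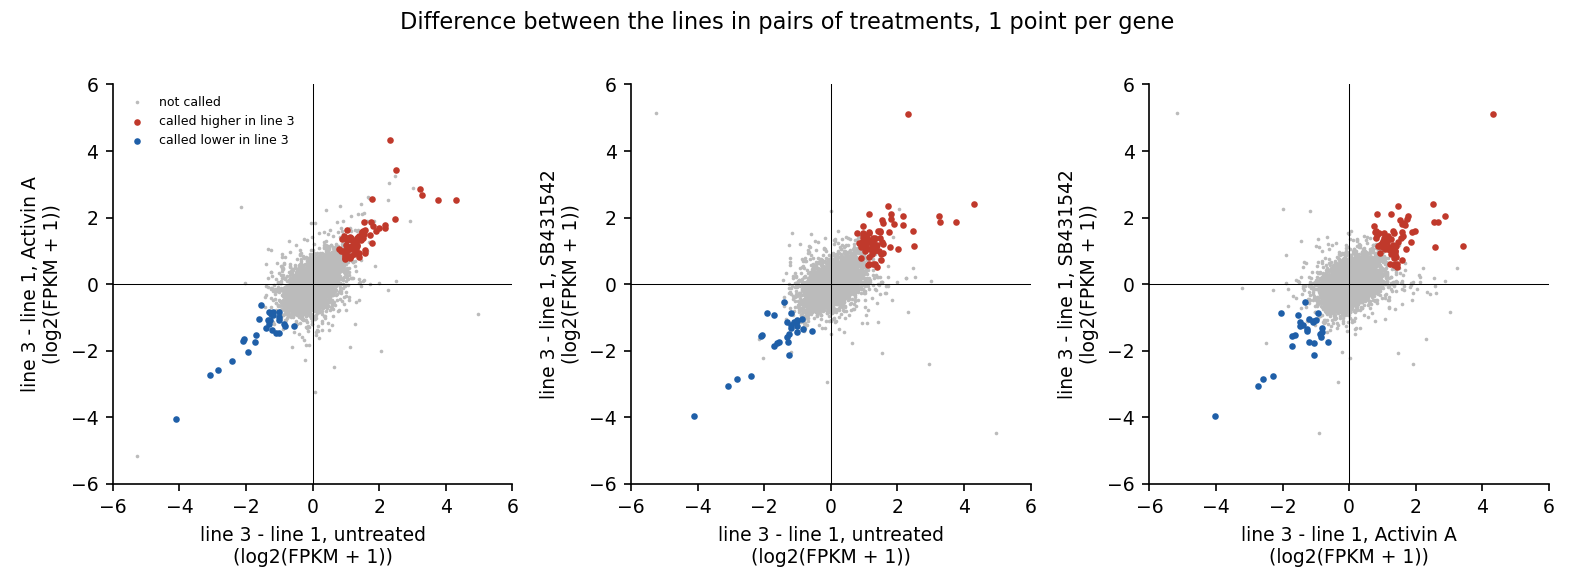
Difference between line 3 and line 1 on the log2(FPKM + 1) scale in 2 treatments at a time, 1 point for each of 14013 genes. The 71 genes called higher (red) all lie at upper right and the 28 called lower (blue) at lower left, and the few grey points far out in the other corners are genes with opposite signs.

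The widest called difference between the lines was in ISYNA1 (ENSSSCG00000040524), named for the enzyme that makes inositol phosphate from glucose 6-phosphate. RefSeq types the pig locus of this symbol as lncRNA, so whether its RNA encodes the enzyme is not known from these data. Values below are in the order untreated, Activin A and SB431542. ISYNA1 stood at 37.4, 38.4 and 30.8 FPKM in line 1 and at 1.23, 1.39 and 1.03 FPKM in line 3. All 3 line 3 values were thus far under every line 1 value. They also lay under all 3 parental libraries, which ran from 13.4 to 35.3 FPKM, while untreated line 1 was just above these. The difference was -4.04 (SE 0.075, limma adjusted p = 0.000460). ISYNA1 lies at chr2:59363672-59367003 of Sscrofa11.1 in the RefSeq annotation, between ELL and SSBP4. ELL differed by 0.17, 0.18 and 0.11 and SSBP4 by 0.68, 0.58 and 0.10 in the 3 treatments, so no lower value was measured in the expressed gene on either side.

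GPC6, a glypican (a heparan sulfate proteoglycan anchored in the cell membrane), was expressed in line 1 and close to absent in line 3. It stood at 6.12, 5.20 and 6.49 FPKM in line 1 against 0, 0.0382 and 0.0305 FPKM in line 3. The 3 parental libraries, at 3.60, 2.57 and 3.87, were below line 1 but well above line 3. The difference was -2.76 (SE 0.10, adjusted p = 0.00345). GPC6 spans chr11:62436143-63560908, and DCT, the next expressed gene after it, differed by 0.17, 0.06 and -0.03. SLITRK5, the nearest expressed gene before it, differed by -0.36, -0.30 and -0.64 and was not called. A gene without a symbol, ENSSSCG00000039364, which the naming rule does not cover and which was picked after its values were seen, was listed at 0 in all 3 line 3 libraries and at 4.31, 3.92 and 5.74 FPKM in line 1. GPC6 and ENSSSCG00000039364 were the only 2 of the 58 genes that stayed below the filter of 0.1 FPKM in all libraries of the lower line. They passed it through line 1 alone, where they had to differ.

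KLHDC8B and GPX1 were both lower in line 3 and are near each other on chromosome 13. KLHDC8B, a kelch domain protein at chr13:31775339-31780483, stood at 10.4, 9.93 and 10.4 FPKM in line 1 and 0.346, 0.641 and 0.362 in line 3. GPX1, the glutathione peroxidase that reduces hydrogen peroxide, lies 135786 bases further on at chr13:31916269-31917337 and stood at 71.0, 68.5 and 66.8 FPKM in line 1 and 20.8, 20.04 and 17.7 in line 3. Neither gene overlapped between lines, and the level within a line hardly moved with treatment, except for KLHDC8B in line 3, which was highest under Activin A. Differences were -2.96 (SE 0.11) and -1.77 (SE 0.057), each with limma adjusted p = 0.00345. None of the other expressed genes around them was called. CCDC71, the nearest before KLHDC8B, differed by -0.18, -0.16 and -0.04, and LAMB2 before that by 0.52, 0.64 and 0.75. USP4, between the pair, differed by -0.01, -0.28 and 0.27. After GPX1, RHOA differed by 0.11, -0.02 and 0.01 and AMT by -0.19, -0.14 and -0.34. The parental libraries were all below line 1 in both genes, at 2.45, 2.50 and 0.621 FPKM in KLHDC8B and spread at 3.58, 28.7 and 19.6 in GPX1. In both genes the parental median was nearer to untreated line 3 than to untreated line 1.

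The other genes named as lower were each lower under all 3 treatments, some by uneven amounts. PDGFB, a platelet-derived growth factor chain, went from 20.9, 15.8 and 17.3 FPKM in line 1 to 4.14, 4.16 and 5.21 in line 3 (-1.78, adjusted p = 0.0121), and the parental libraries were at 0.226, 0.210 and 0.0995. COL2A1, the type II collagen of cartilage and notochord, was 48.4, 51.1 and 50.0 in line 1 and 19.04, 21.6 and 14.3 in line 3. KRT8, a keratin of simple epithelia, was 96.7, 100.04 and 200.1 in line 1 and 44.3, 35.3 and 90.4 in line 3. None of these 3 overlapped between the lines, though in KRT8 line 3 under SB431542 came near untreated line 1. ALPL, the alkaline phosphatase used as a stain for pluripotent colonies, was 40.4, 19.2 and 45.9 in line 1 and 12.5, 8.78 and 12.7 in line 3, and the parental libraries were at 121, 69.3 and 40.3. EPHA3, a receptor for ephrins, was 32.9, 39.1 and 26.3 against 15.8, 13.4 and 10.4. COLEC12, a scavenger receptor with a collagen-like stretch, was 8.46, 6.51 and 17.5 against 2.92, 2.58 and 3.24, with the widest gap under SB431542. GUCD1, MTSS2 and MAOA (monoamine oxidase A) had closely matched gaps in the 3 treatments, with differences of -1.18, -1.07 and -1.02 and adjusted p = 0.0121, 0.00921 and 0.00921. PRSS23, a serine protease, was called (-1.38, adjusted p = 0.0268) although its gap under SB431542 was only 0.91. ST14, the epithelial membrane protease matriptase, was 1.63, 1.5 and 1.76 FPKM in line 1 and 0.427, 0.323 and 0.457 in line 3, and at -0.91 it missed the size needed for a call with 1 added to each FPKM. Called genes outside the naming rule, picked after their values were seen, included IDH1, a cytosolic isocitrate dehydrogenase, at 77.8, 75.0 and 66.1 FPKM in line 1 and 28.8, 29.3 and 45.4 in line 3 (-1.09, adjusted p = 0.0426). ZSCAN10, a zinc finger protein of pluripotent cells, was 5.77, 4.51 and 8.12 against 1.72, 2.08 and 2.04, and MTTP, which loads lipid onto lipoproteins, was 9.54, 4.56 and 18.6 against 3.45, 2.02 and 5.92.

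**Figure D2:**
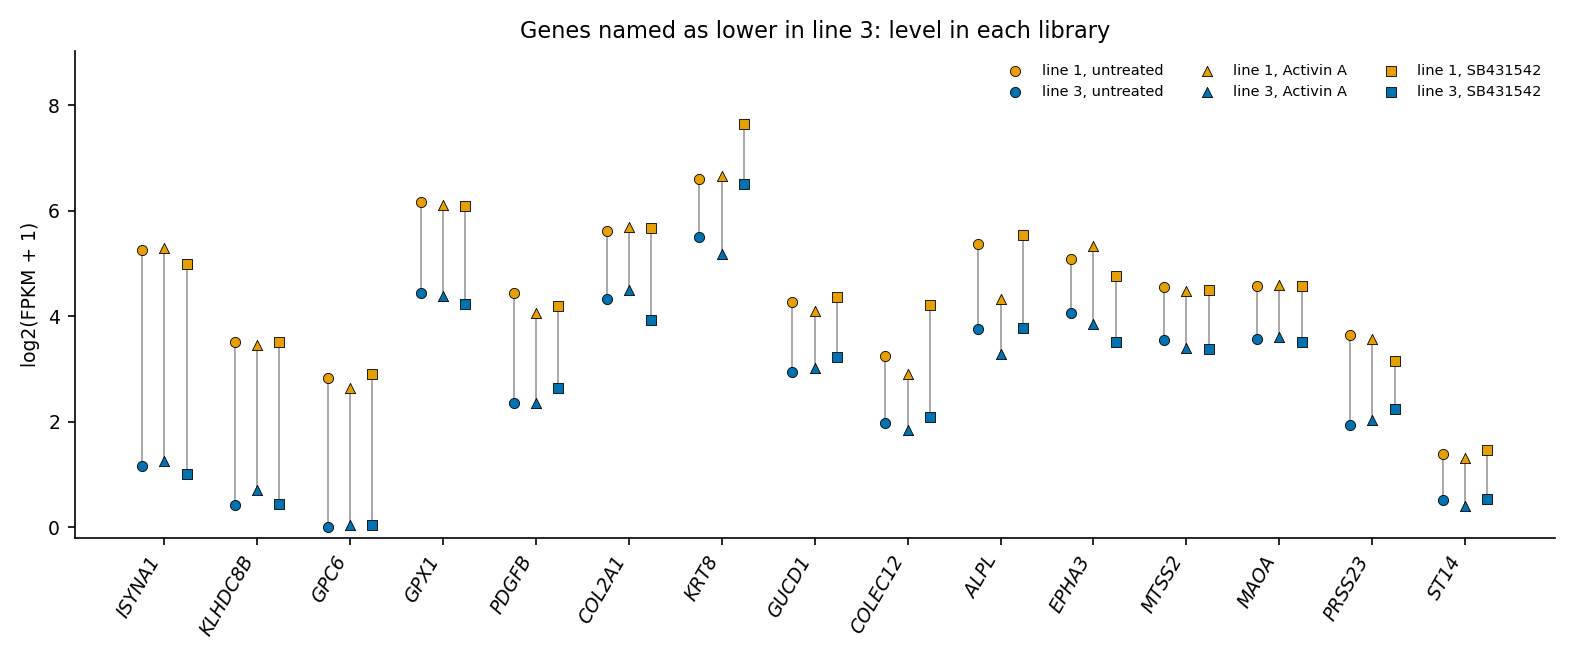
Level on the log2(FPKM + 1) scale of the 15 genes named as lower in line 3, in each of the 6 libraries, with a grey line joining the lines within a treatment. The blue point (line 3) lies under the orange point (line 1) in every pair, and GPC6 is at or near 0 in line 3.

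Among genes with a symbol, COL3A1, LMO1 and OLIG2 had the widest differences called higher in line 3. In all 3 the level was highest under Activin A and lowest under SB431542 in both lines. LMO1, a LIM-domain partner of transcription factors that is active in developing brain, was 2.18, 5.20 and 1.46 FPKM in line 1 and 29.0, 44.3 and 9.09 in line 3 (difference 2.71, SE 0.23, limma adjusted p = 0.0169). It lies at chr9:1045138-1082974, and of the 3 nearest expressed genes on each side 5 of 6 also had a higher value in line 3 under all 3 treatments, by far smaller amounts and without a call. EIF3F, for example, differed by 0.28, 0.28 and 0.27 (adjusted p = 0.0408), and TUB, the exception, by 0.53, 0.77 and -0.13. The parental libraries, at 66.2, 15.7 and 17.3 FPKM, spanned untreated line 3 and were all above untreated line 1. OLIG2, a helix-loop-helix factor of ventral neural progenitors at chr13:196596838-196602197, was 0.653, 2.56 and 0.194 in line 1 and 15.0, 21.7 and 3.37 in line 3 (2.61, SE 0.27, adjusted p = 0.0206). Here the parental values of 2.02, 3.02 and 2.73 lay between the lines. The line 3 value under SB431542, 3.37 FPKM, was only just above the line 1 value under Activin A, 2.56 FPKM.

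COL3A1, the chain of type III collagen in loose connective tissue, was 0.771, 6.57 and 0.0156 FPKM in line 1 and 23.2, 42.9 and 2.73 in line 3 (2.73, SE 0.36, adjusted p = 0.0279), at chr15:93556914-93595678. Activin A libraries were highest and SB431542 libraries lowest in both lines, and line 3 under SB431542 was below line 1 under Activin A. An unnamed gene, ENSSSCG00000032706, had a matching pattern at 0.618, 9.03 and 0 FPKM in line 1 and 31.1, 56.7 and 4.34 in line 3, and it was picked after its values were seen. COL3A1 is also a fibroblast gene, and of 21 fibroblast or feeder genes matched it was the only one called among 17 tested, where 0.507% of all genes were called higher and 0.2% lower. The summed FPKM of that list was 571, 624 and 546 in line 1 and 621, 647 and 534 in line 3. POSTN and FAP were listed at 0, LUM did not exceed 0.086 FPKM, COL1A1 was 0.739, 0.323 and 0.521 in line 1 and 0.345, 0.214 and 0.366 in line 3, and COL1A2 was 12.7, 21.3 and 4.77 and 10.2, 12.7 and 4.66. COL5A2, which lies next to COL3A1 at chr15:93611856-93981131, was 3.57, 6.21 and 2.76 in line 1 and 7.75, 9.49 and 5.73 in line 3 (0.77, adjusted p = 0.0321, below the size for a call). Of the 17 tested fibroblast genes 4 were higher and 5 lower under all 3 treatments, against 25.3% and 26.2% of all genes, with a median of 0.03, and the part of such cells in the COL3A1 values was not tested. The study's methods state that feeder cells were left behind, by letting them attach, before RNA was taken. Fewer cells of a type and less RNA per cell cannot be told apart in bulk libraries such as these.

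A further group was higher in line 3 by nearly the same amount under every treatment. FAM181B was 2.43, 2.74 and 2.46 FPKM in line 1 and 14.4, 11.7 and 13.4 in line 3 (2.00, adjusted p = 0.00784), with parental values of 12.04, 9.16 and 9.27. PGM5, a phosphoglucomutase relative found at cell junctions, was 3.53, 4.43 and 5.51 against 15.9, 15.5 and 21.97. PLGRKT, a plasminogen receptor, was 0.426, 0.446 and 0.306 against 3.27, 3.51 and 3.66. For these 3 genes the SB431542 and Activin A libraries of a line lay close together beside the gap between the lines. EXO5, a single-strand DNA exonuclease, was 0.989, 0.909 and 1.27 against 5.66, 6.03 and 5.74. CD99, named for a surface glycoprotein though RefSeq types the pig locus as lncRNA, was 0.907, 0.802 and 0.705 against 4.53, 4.16 and 5.55, and all parental libraries were higher still, at 23.8, 7.01 and 12.8. KCNK5, a background potassium channel, was 1.27, 0.996 and 1.31 against 5.37, 4.95 and 5.89, while the parental libraries were at 0.210, 0.926 and 0.0560 and thus below both lines. Limma adjusted p was 0.00784 for PGM5, 0.00784 for PLGRKT, 0.00909 for EXO5, 0.0121 for CD99 and 0.00784 for KCNK5.

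The remaining genes named as higher have varied roles. DCC, the netrin receptor of growing axons, was 0.958, 2.59 and 0.335 FPKM in line 1 and 7.83, 10.6 and 3.54 in line 3 (1.88, adjusted p = 0.0121). BMP5, a bone morphogenetic protein, was 2.72, 4.22 and 1.86 against 11.2, 13.5 and 13.6, and it was the 1 member called among 26 tested genes of the BMP list, where 0.507% of all genes were called higher. RSPO2, a secreted enhancer of Wnt signalling, was 1.35, 2.72 and 0.435 against 4.26, 8.48 and 3.15 and was likewise the 1 member called of 51 Wnt genes, read against the same 0.507%. Neither gene overlapped between the lines, though in RSPO2 line 3 under SB431542 was close to line 1 under Activin A. C1QL2, a secreted synaptic protein, was 10.4, 12.7 and 6.22 against 30.7, 39.4 and 17.8. GRB14, an adaptor that binds the insulin receptor, was 6.97, 9.17 and 5.95 against 21.0, 24.6 and 20.1. KLHL13, a substrate adaptor of a ubiquitin ligase, was 5.81, 7.34 and 3.62 against 18.8, 29.1 and 10.05. Adjusted p for BMP5, RSPO2, C1QL2, GRB14 and KLHL13 was 0.0196, 0.0139, 0.00634, 0.00784 and 0.0146. ACTG2, the smooth muscle gamma actin, was 22.7, 19.99 and 12.5 against 55.6, 49.8 and 33.8 (adjusted p = 0.00634). Of 12 smooth muscle genes tested it was the only one called, against 0.507% of all genes called higher. Under all 3 treatments 4 of the 12 were higher and 6 lower, against 25.3% and 26.2% of all genes, and the summed level of the list was 838, 719.6 and 828 FPKM in line 1 and 697, 615 and 710.5 in line 3. TAGLN was 457, 402 and 413 FPKM in line 1 and 299, 282 and 296 in line 3 (-0.53, adjusted p = 0.0196, too small a difference for a call). Actins are close in sequence, and the share of reads that FPKM assigned to ACTG2 rather than to its relatives is uncertain.

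**Figure D3:**
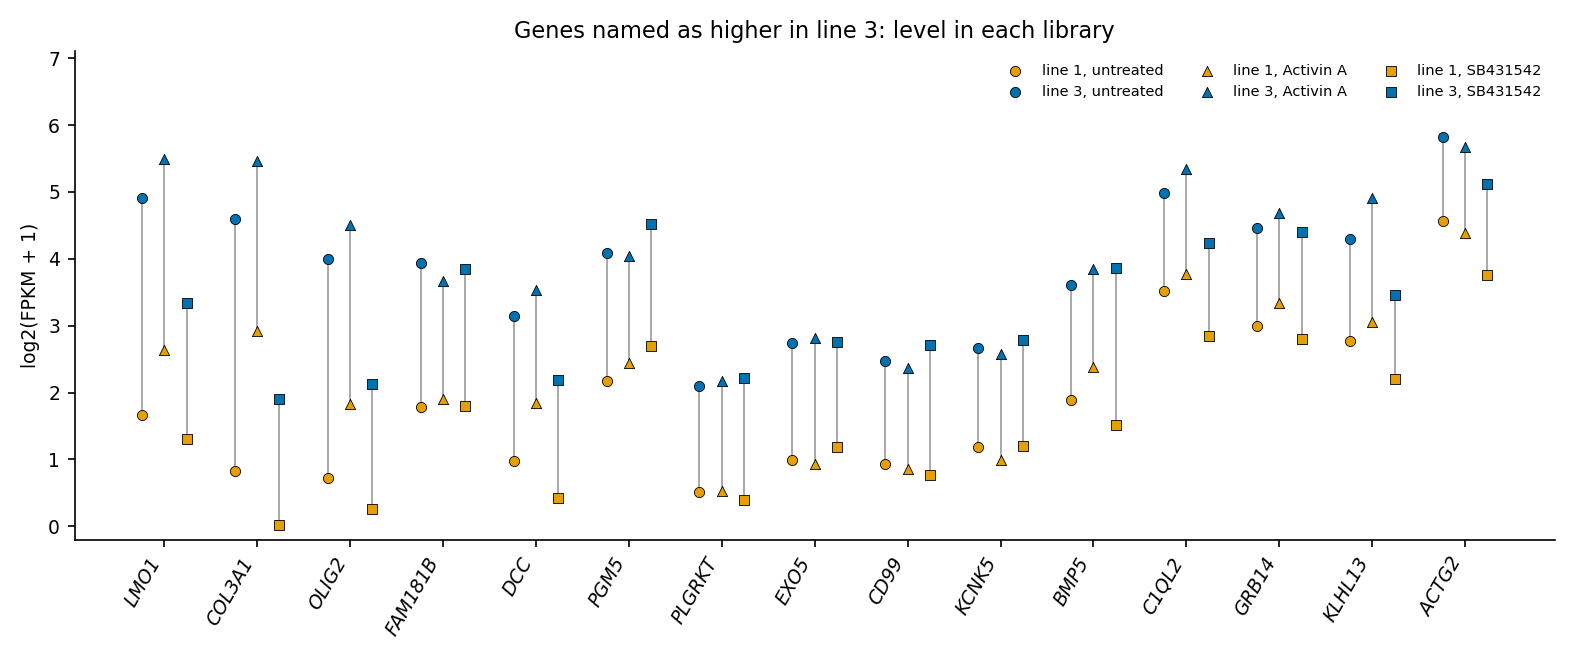
Level on the log2(FPKM + 1) scale of the 15 genes named as higher in line 3, in each of the 6 libraries, drawn as for the lower genes. Line 3 (blue) lies above line 1 (orange) in every pair. LMO1, COL3A1, OLIG2, DCC, C1QL2, GRB14, KLHL13 and ACTG2 are also lowest under SB431542 (squares) in both lines.

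The neural and ectodermal list held more genes called higher than any other list. Of its 43 genes 33 were tested, and 8 were called higher and none lower, against 0.507% and 0.2% of all genes. With these 8 included, 24 of the 33 were higher under all 3 treatments, against 25.3% of all genes, and the median difference was 0.61 against -0.004 over all genes tested. The median was 0.65 untreated, 0.77 with Activin A and 0.51 with SB431542, and it was 0.30 for parental library 3 minus parental library 1. Their summed level went from 917, 1037 and 709 FPKM in line 1 to 1387, 1614 and 1191 in line 3. In both lines this sum was highest with Activin A and lowest with SB431542. The count was 0 without the untreated pair and 3 without the treatment block. The list was written with earlier results of these data known, so its count describes line 3 and is not independent evidence of its direction.

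Progenitor factors led the neural list, with OLIG2 (above) the widest apart. POU3F1, a POU factor of epiblast, neural progenitors and glia, was 1.62, 2.09 and 2.33 FPKM in line 1 and 13.7, 32.5 and 6.29 in line 3. Its difference of 2.35 (SE 0.43, adjusted p = 0.0480) was only just called, and it was not called with quantile normalization, without the variance trend, or without the untreated or the Activin A pair. NEUROG1, a proneural factor, was 27.7, 41.1 and 10.4 against 60.1, 88.5 and 28.9 (1.19, adjusted p = 0.0121). SOX9, a factor of neural stem cells and neural crest, was 2.81, 5.17 and 1.91 against 8.67, 13.1 and 5.34 (1.22, adjusted p = 0.0121). Line 3 was above line 1 within each treatment for both. Across treatments the lines overlapped in NEUROG1, where line 3 under SB431542 was below line 1 under Activin A, and nearly so in SOX9. PAX6 was 0.858, 1.52 and 1.75 in line 1 and 3.84, 3.801 and 5.28 in line 3 (1.17, adjusted p = 0.0197), and the parental libraries were above both lines at 14.1, 26.8 and 8.96. MAB21L2, expressed in developing eye and midbrain, was 0.664, 0.908 and 0.957 against 3.98, 2.65 and 2.74, and here too the parental libraries were above both lines, at 53.02, 25.8 and 39.6. CRABP1, which binds retinoic acid, was 162, 134 and 139 against 318, 242 and 391, and TUBB3, the neuronal beta tubulin, was 58.5, 60.8 and 27.7 against 107, 123 and 67.1.

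Other neural genes had values in the same direction without a call. ZIC4 was 31.7, 32.8 and 20.1 FPKM in line 1 and 51.7, 64.7 and 45.1 in line 3 (0.92, adjusted p = 0.0202), and HES5, a Notch target, was 36.4, 77.8 and 18.2 against 56.9, 157 and 30.3 (0.78, adjusted p = 0.0234). SOX1, one of the earliest neural plate factors, was 8.94, 11.5 and 8.14 against 19.4, 31.3 and 7.72, a gap under 2 treatments that was absent under SB431542 (adjusted p = 0.156). NES, a filament of neural progenitors, was 136, 125 and 113 against 125, 134 and 136 and SOX11 was 61.7, 77.5 and 59.9 against 65.0, 97.2 and 48.5, so both abundant genes had differences of either sign. LHX5 had the reverse values under Activin A, at 8.49 FPKM in line 1 and 2.36 in line 3.

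**Figure D4:**
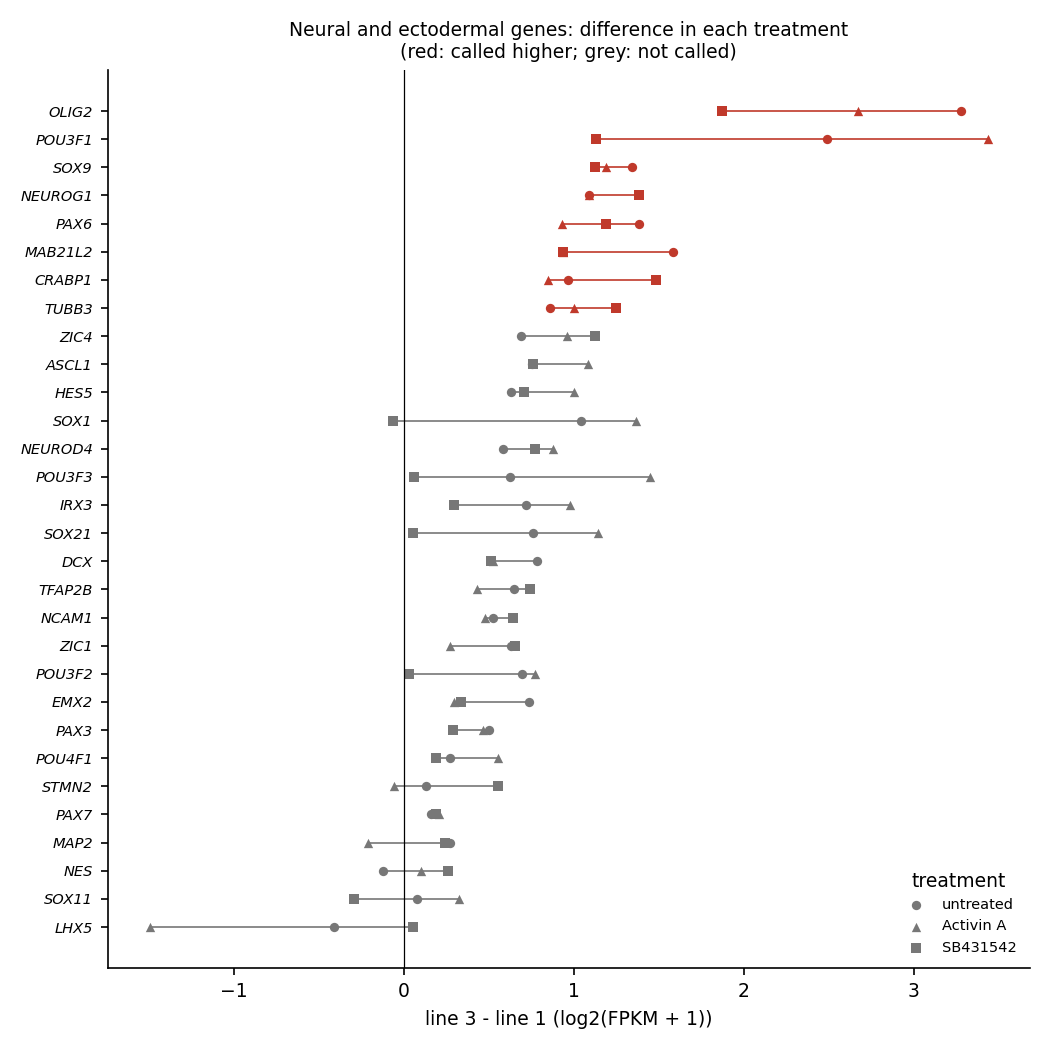
Line 3 minus line 1 difference on the log2(FPKM + 1) scale for the 30 tested genes of the neural and ectodermal list with a mean of at least 1 FPKM, with 1 symbol per treatment and a bar over their range. The 8 called genes (red) lie at the top, and SOX1, POU3F3, SOX21 and POU3F2 have their SB431542 value (square) at or near 0.

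Epithelial and collagen genes were compared in the same way. In the simple epithelium list, KRT8 was the 1 gene called lower of 21 tested, against 0.2% of all genes. With KRT8 included, 13 of the 21 were lower and 2 higher under all 3 treatments, against 26.2% and 25.3% of all genes, with a median difference of -0.17. The summed level of the list was 294, 305 and 409 FPKM in line 1 and 211, 195 and 254 in line 3. CDH1, the epithelial cadherin, was 5.01, 6.53 and 5.30 FPKM in line 1 and 2.63, 2.85 and 3.20 in line 3 (-0.76, adjusted p = 0.0325), and CLDN6, an embryonic claudin, was 103, 100.1 and 100.04 against 81.7, 70.0 and 76.8 (-0.40, adjusted p = 0.0324). KRT18, the partner of KRT8, was 7.57, 12.1 and 9.87 against 5.004, 4.79 and 6.81 (-0.72, adjusted p = 0.0677). EPCAM did not exceed 0.445 FPKM in any of the 6 libraries, and KRT7 was listed at 0. In the collagen family 2 genes were called lower, COL2A1 and COL26A1, and 1 higher, COL3A1, of 25 tested, against 0.2% and 0.507% of all genes. Of the 25, 14 were lower and 7 higher under all 3 treatments, where all genes gave 26.2% and 25.3%. COL18A1 was 90.4, 85.6 and 118 in line 1 and 52.3, 54.7 and 51.2 in line 3, and COL9A1 was 19, 16.1 and 16.2 against 9.48, 10.52 and 8.80, both short of the size for a call.

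NANOG and other pluripotency genes were read next. NANOG itself, the knock-in target, was 52.0, 109 and 11.8 FPKM in line 1 and 70.4, 157 and 11.8 in line 3. These values are of 1 gene entry without a known position here, and how reads were shared between the NANOG loci is uncertain. Line 3 was above line 1 when untreated and under Activin A and level with it under SB431542, the treatment in which NANOG was lowest in both lines. The difference was 0.32 (SE 0.11, limma adjusted p = 0.149) and was not called, and the parental libraries ran from 9.71 to 27.6 FPKM. Of 19 tested pluripotency genes POU3F1, which is also in the neural list, alone was called, against 0.507% of all genes called higher. ALPL and ZSCAN10 (above) are not in this list and were called lower, by -1.48 and -1.25 (limma adjusted p = 0.0198 and 0.0270). Under all 3 treatments 12 of the 19 were higher and 3 lower, against 25.3% and 26.2% of all genes, and the median difference was 0.15. LIN28A and LIN28B, RNA-binding proteins that block let-7 processing, were among the 3 lower at 163, 90.0 and 327 against 108, 67.5 and 192 FPKM and 20.9, 17.3 and 30.0 against 12.3, 10.7 and 17.7 FPKM, with differences of -0.59 and -0.70 and adjusted p = 0.0292 and 0.0172. KLF4 was 68.9, 71.9 and 70.2 against 91.4, 96.9 and 82.0 and SOX2 64.0, 59.6 and 68.8 against 67.7, 69.9 and 71.5.

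In the Activin and TGF-β list 35 genes were tested and limma called none, with 10 at an unadjusted p of at most 0.05 and 4 at an adjusted p of at most 0.05. Over all genes 0.507% were called higher and 0.2% lower, so a count of 0 calls among 35 lies near the background. Of all 14013 genes tested, 27.7% had an unadjusted p of at most 0.05, and 783 had an adjusted p of at most 0.05. BAMBI, a decoy receptor, was 14.5, 21.9 and 8.49 FPKM in line 1 and 27.6, 34.7 and 17.3 in line 3 (0.82, adjusted p = 0.0196). INHBB, which encodes an Activin subunit, was 0.186, 0.401 and 0.156 against 0.946, 0.785 and 0.943 (0.60, adjusted p = 0.0444), and GDF11 was 7.11, 6.62 and 7.71 against 10.1, 12.3 and 13.5 (0.66, adjusted p = 0.0333). Among transducers and a receptor of the list, none was called. SMAD3 was 28.2, 24.2 and 31.4 against 26.7, 24.7 and 29.5, SMAD4 24.7, 20.3 and 22.9 against 25.4, 19.97 and 24.8 and TGFBR1 30.9, 34.6 and 34.6 against 34.7, 33.2 and 33.4. SMAD2 was 6.51, 5.34 and 7.03 against 4.62, 4.46 and 5.45 (adjusted p = 0.0970). SMAD7, an inhibitory SMAD that the pathway induces, was higher with Activin A than with SB431542 in both lines, at 2.59, 7.28 and 1.75 in line 1 and 2.24, 6.67 and 1.37 in line 3.

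The higher genes were also compared between Activin A and SB431542 within each line. Of the 43 genes at least 1 higher, 25 (58.1%) were higher with Activin A than with SB431542 in both lines, against 30.8% of all genes tested. The number lower in both was 7, against 4657 of all 14013 genes tested. Among the 15 lower genes the counts were 5 and 6. The median of Activin A minus SB431542 over the 43 genes was 0.40 in line 1 and 0.40 in line 3, against -0.01 and -0.002 over all genes. The size of the line difference was greatest when untreated in 13 of the 43 genes, under Activin A in 11 and under SB431542 in 19. The Activin A and SB431542 libraries used here are also the ones in which the line difference was measured, so these shares are a description.

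The lines were also set against the parental libraries. In untreated libraries, line 3 alone fell within the range of the 3 parental libraries for 16 (37.2%) of the 43 higher genes and line 1 alone for 9 (20.9%), against 15.6% of all genes for either line. Both were in range for 1 of the 43 and neither for 17. For the 15 lower genes line 3 alone was within range in 3, line 1 alone in 2, both in 1 and neither in 9. Line 3 was nearer to the parental median in 23 of the 43 (53.5%) and 10 of the 15 (66.7%), and in 19 of the 28 called lower (67.9%), against 51.4% of all genes tested. The sign of the parental 3 minus 1 difference was positive in 21 and negative in 22 of the 43.

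Of 31 lists 15 had a called member and 16 none, of which 1 had no member tested. Lists share genes, so KRT8, COL3A1 and POU3F1 each count as a call in more than 1 list. The counts below stand against 0.507% of all genes called higher and 0.2% called lower, and against 25.3% higher and 26.2% lower under all 3 treatments. For an unadjusted p of at most 0.05 the share of all genes was 27.7%. Immediate-early genes had 2 called higher of 23 tested, ARC at 8.74, 6.89 and 4.98 against 32.9, 17.7 and 24.6 FPKM and EGR1 at 65.3, 151 and 53.4 against 123, 304 and 117. The parental libraries differed in EGR1 by more than the lines did within any treatment, at 183, 64.6 and 14.0. EGR2 was 3.30, 8.33 and 2.76 against 6.495, 16.1 and 6.17 (0.87, adjusted p = 0.0179). FOS, the most studied of them, was at 47.1, 111 and 37.9 against 48.2, 119 and 38.0. Clustered protocadherins, adhesion genes of which single cells express a few, had PCDHB15 and PCDHGA7 called higher of 21 tested, with 12 higher and 3 lower under all 3 treatments. PCDHB15 was 0.830, 0.749 and 0.543 against 3.97, 3.51 and 2.07 and PCDHGA7 1.63, 1.78 and 1.92 against 5.20, 5.63 and 4.46, and the shared exons of these clusters make their separate FPKM uncertain. In the ephrin list only EPHA3 was called of 19 tested, in the glycolysis and hypoxia list only ENO2 of 28, and in the integrin and laminin list only LAMC3 of 29. Of 9 trophectoderm genes tested 1 was called lower, the same KRT8 as in the simple epithelium list, and 4 were lower and 1 higher under all 3 treatments. ENO2, the neuronal enolase, was 4.43, 4.73 and 4.52 against 9.95, 11.9 and 14.1 (adjusted p = 0.0172). Of 59 ribosomal protein genes only RPS24 was called, at 229.9, 204 and 189 FPKM in line 1 and 468, 632 and 522 in line 3 (adjusted p = 0.0172), and its parental values of 391, 627 and 239.6 spread as widely. Ribosomal proteins have many near-identical processed copies, so this value is uncertain. Limma called none of 18 Notch genes, though 10 were higher and 1 lower under all 3 treatments and 8 had an unadjusted p of at most 0.05. None of 24 interferon response genes was called (2 at an unadjusted p of at most 0.05), nor of 12 HOX genes (3), 13 DNA methylation genes (3) or 23 imprinted genes (11).

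**Figure D5:**
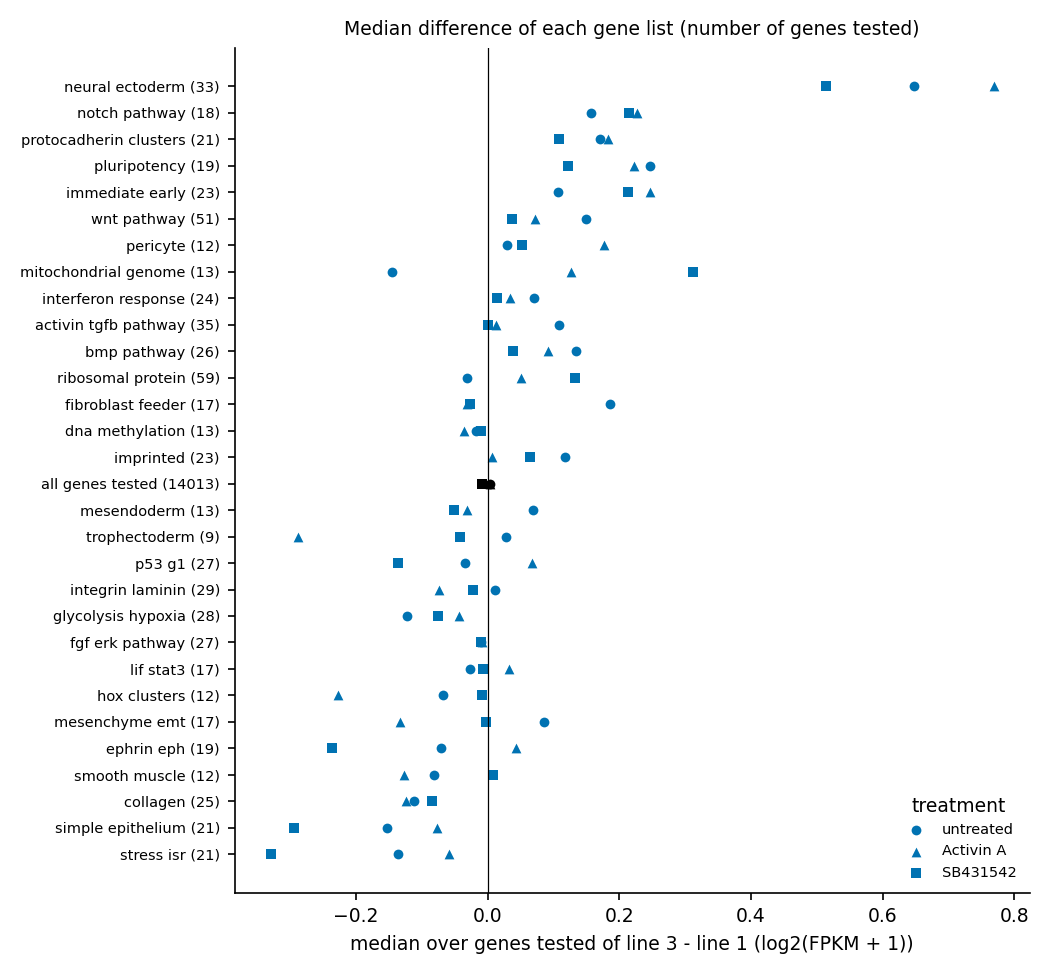
Median line 3 minus line 1 difference on the log2(FPKM + 1) scale for each gene list with at least 9 genes tested, with 1 symbol per treatment and the number tested in brackets. The neural ectoderm list lies at 0.51 to 0.77, above the other lists drawn, and all genes tested (black) lie at -0.009 to 0.004.

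No chromosome differed as a whole between the lines. Medians over genes at 1 FPKM or more ran from -0.08 to 0.05 for chromosomes 1 to 18 and X in the 3 treatments, and X was at 0.04, -0.006 and 0.01. Of 9558 windows of 11 neighbouring genes, none reached a median of 0.5 in all 3 treatments. The strongest window ran from AK3 to PIP5K1B on chr1:217236561-222379114, with medians of 0.34, 0.37 and 0.29. PGM5 (chr1:221634516-221837764) lies in it and PLGRKT (chr1:216692002-216739726) just before it. Within the window GLIS3 differed by 0.79, 0.46 and 0.50 and SMARCA2 by 0.60, 0.47 and 0.46, whereas KANK1 differed by -0.84, -0.51 and -0.72, and none of them was called. Besides KLHDC8B and GPX1, the only pair of called genes with a known position that lay within 1 Mb was EGR1 and LRRTM2 on chromosome 2, 358322 bases apart, both higher.

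The threshold of 1 cuts through a continuous run of values. Just inside, FJX1 had a smallest difference of 1.01, ENO2 of 1.01 and MTSS2 of -1.01. Just outside, PCDHB15 had 0.99, EYA4 0.98 and MAOA -0.99. Some genes did not hold a direction at all: 16 were at least 1 higher in line 3 under 1 treatment and at least 1 lower under another. RNF146 was 29.6, 29.7 and 5.79 FPKM in line 1 and 29.4, 12.5 and 29.8 in line 3, and SMAD5 was 7.78, 8.89 and 2.70 against 8.52, 2.63 and 8.06. RBPJ, the DNA-binding partner of Notch, was 3.74, 9.68 and 9.46 against 11.7, 10.3 and 3.77. Neither line was steadily higher in any of these. An unnamed gene, ENSSSCG00000018061, had the widest difference called higher (3.92, adjusted p = 0.0298), at 6.94, 0.387 and 0.235 FPKM in line 1 and 38.6, 27.1 and 41.8 in line 3, but its parental libraries stood at 0.315, 35.9 and 57.9. It was picked after its values were seen.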

How the data were processed

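RNA was sequenced from 12 pig libraries, of which 6 were compared here. According to the submitters' processing notes and the study's methods, base calls were converted with bcl2fastq 2.17.1.14, reads were trimmed with Trim Galore and aligned to the Ssc11.1 pig genome with HISAT2 2.0.4, and StringTie 1.3.3, featureCounts 1.6.4 and DESeq2 are also named. Strandedness is not given in the sources used here, so overlapping and antisense genes cannot be separated. The authors deposited FPKM values in 2 tables, one with the parental and untreated reporter libraries and one with the Activin A and SB431542 libraries. FPKM holds no total read number, so relative depth was read from values under 0.3 FPKM.

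The tables were joined by Ensembl identifier (24358 genes, 6850 of them at 0 in all 6 libraries). Symbols came from the tables for 17451 genes and from a gene name list for 965, and 14756 genes were given a RefSeq Sscrofa11.1 position by symbol. Genes with at least 0.1 FPKM in 3 of 6 libraries were tested on log2(FPKM + 1) with limma 3.58.1 in R 4.3.3 (variance trend, treatment as a block, Benjamini-Hochberg adjustment over all 14013 genes). This scale understates changes of low genes. Each pair of lines lies within 1 table. The named genes were the 15 with a symbol in each direction with the largest smallest difference over 3 treatments, NANOG, and list members at least 1 apart in every treatment. The lines compared, the gene lists and the tests were chosen with earlier results of these data known. Alternatives changed the pseudocount, scaling, filter, variance trend, block and pairs used. The code was tested on simulated data.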

Additional observations from a re-analysis of the deposited data

Results flagged for a closer look

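In 16 genes line 3 was at least 1 higher than line 1 on the log2(FPKM + 1) scale under 1 treatment and at least 1 lower under another. With 1 library per line and treatment the difference between treatments was not tested. The widest was ENSSSCG00000039803, a gene without a symbol, at 37.4, 34.8 and 0 FPKM in line 1 and 0, 0 and 34.2 FPKM in line 3 (untreated, Activin A and SB431542). THAP12 was at 10.2, 9.10 and 38.3 FPKM in line 1 and 31.6, 26.8 and 8.42 in line 3.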

How the results depend on the processing

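No paired analysis was possible because the replicate number is itself the factor compared, as far as a block on that number goes. The test was paired by treatment instead. No value of the 38 named genes reversed under any alternative run. Against 71 genes called higher and 28 lower, a pseudocount of 0.1 gave 173 and 85, one of 0.01 gave 157 and 79, and TPM gave 119 and 52. An adjusted p alone gave 459 and 324. No treatment block gave 35 higher, all among the 71, and 19 lower. With no filter limma called 0 in either direction over 24358 genes, with 3781 at an unadjusted p of at most 0.05. Leaving out each pair gave 3 to 103 higher and 4 to 34 lower, the low ends without the untreated pair. Genes at least 1 apart in all treatments, 43 higher and 15 lower, became 127 and 60 with a pseudocount of 0.1, 172 and 93 with 0.01 and 68 and 27 with TPM, and leaving out each pair gave 51 to 86 and 22 to 26. The 8 neural genes called higher became 0 with no filter, 3 with no treatment block and 0 to 7 without a pair, alternatives added for this list after seeing the data. The cause was not tested. Median-ratio scaling, quantile normalization, no variance trend and a filter of 1 FPKM left these counts within 1.5 times. ST14 was called under both smaller pseudocounts and TPM, and POU3F1 was not called with quantile normalization (adjusted p = 0.053) or no variance trend (0.0577). Depth is unknown, which limits values below 1 FPKM most.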
